A study of Homo sapiens with 15 samples.

Results

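The mRNA levels of 8 genes of glucose entry were followed through co-culture of lung fibroblasts and small cell lung cancer (SCLC) cells. They were the glucose transporter genes SLC2A1, SLC2A3, SLC2A6, SLC2A8, SLC2A10 and SLC2A12 and the hexokinase genes HK1 and HK2, taken by symbol from the 17138 genes that the study's tables list together. The table for MRC5 lists 16382 genes with all 8 of them, and the table for H196 lists 16076 genes with 7, without SLC2A10. MRC5 cells are fibroblasts of human lung grown as a line, H69 is an established neuroendocrine (NE) SCLC line and H196 is an established non-NE SCLC line. There were 5 groups of 3 libraries, 15 in all. MRC5 was grown alone (MRC5_Mo), with H69 (MRC5_CoH69) or with H196 (MRC5_CoH196), and H196 was grown alone (H196_Mo) or with MRC5 (H196_Co). No gene was altered in any group, and no drug was added. The partner cells sat on a transwell insert, so they shared medium with the sequenced cells without touching them, and co-culture lasted a week. Each line stands for its cell type alone. H69 itself was not sequenced. The medium of the co-culture wells is not given in the sources used here, so an effect of the partner cells and an effect of their medium cannot be told apart. The labels do not say that replicates came from separate cultures, so p-values measure the spread between these libraries, which may be technical.

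Glucose crosses the plasma membrane down its gradient through the GLUT proteins, which the SLC2A genes encode. SLC2A1 encodes GLUT1, the common transporter of cultured and proliferating cells, and SLC2A3 encodes GLUT3, a high-affinity transporter best known from neurons. Hexokinases then add a phosphate to glucose, which keeps it in the cell and commits it to glycolysis, the pentose phosphate route or glycogen. HK1 is the widely expressed hexokinase, and HK2 is the inducible form of muscle, fat and many tumours. Both bind the outer mitochondrial membrane. SLC2A1, SLC2A3 and HK2 are textbook targets of hypoxia-inducible factor (HIF), which binds DNA at short elements with the core ACGTG or GCGTG.

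On GRCh38.p13, the build of the files, SLC2A1 (gene 6513) lies at chr1:42924460-42958868, SLC2A3 (6515) at chr12:7919230-7936187, HK1 (3098) at chr10:69269991-69401882 and HK2 (3099) at chr2:74831351-74893359. SLC2A8 (29988) lies at chr9:127397140-127408424, SLC2A10 (81031) at chr20:46708358-46736347 and SLC2A12 (154091) at chr6:133987581-134052651. SLC2A6 (11182) is listed on more than 1 contig and has no position here. The values are sums over all transcripts of a gene, so splice forms are not resolved.

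The promoters of 3 genes that rose in both lines and of 1 that fell in both are shown because these genes kept their direction in both. SLC2A3 also rose in both lines, but the RefSeq set used here holds no window for it. Each is a RefSeq window from 250 bases before to 50 bases after a start site of the gene on GRCh38.p14. The windows are chr1:42958819-42959118 on the minus strand for SLC2A1 and chr9:133479050-133479349 on the minus strand for SLC2A6. On the plus strand they are chr2:74833877-74834176 for HK2 and chr10:69269750-69270049 for HK1. The HK2 window lies inside the gene as placed above, so its start site is not the gene's first base there. Capitals mark ACGTG and GCGTG read on either strand, so that CACGT and CACGC are the same cores on the other strand.
SLC2A1: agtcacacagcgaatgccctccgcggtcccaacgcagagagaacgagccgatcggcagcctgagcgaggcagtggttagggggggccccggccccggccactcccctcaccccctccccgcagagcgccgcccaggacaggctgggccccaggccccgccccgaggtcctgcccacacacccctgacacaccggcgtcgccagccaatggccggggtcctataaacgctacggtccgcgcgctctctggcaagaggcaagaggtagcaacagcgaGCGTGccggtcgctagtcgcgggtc
HK2: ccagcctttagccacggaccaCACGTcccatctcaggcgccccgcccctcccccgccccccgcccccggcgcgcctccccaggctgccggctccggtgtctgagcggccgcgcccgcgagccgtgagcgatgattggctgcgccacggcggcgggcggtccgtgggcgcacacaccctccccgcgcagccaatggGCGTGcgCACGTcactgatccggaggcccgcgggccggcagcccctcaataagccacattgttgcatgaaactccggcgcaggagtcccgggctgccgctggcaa
HK1: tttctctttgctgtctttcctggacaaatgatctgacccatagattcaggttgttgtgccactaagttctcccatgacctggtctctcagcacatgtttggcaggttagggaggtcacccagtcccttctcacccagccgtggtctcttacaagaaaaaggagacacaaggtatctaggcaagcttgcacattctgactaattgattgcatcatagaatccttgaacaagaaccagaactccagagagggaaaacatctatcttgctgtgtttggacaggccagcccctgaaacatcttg
SLC2A6: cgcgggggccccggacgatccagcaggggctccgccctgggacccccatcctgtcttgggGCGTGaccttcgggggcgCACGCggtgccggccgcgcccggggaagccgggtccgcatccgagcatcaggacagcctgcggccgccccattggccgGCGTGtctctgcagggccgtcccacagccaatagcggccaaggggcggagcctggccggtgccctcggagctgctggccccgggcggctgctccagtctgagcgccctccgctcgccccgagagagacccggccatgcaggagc
The HK2 window held 3 cores, from -229 to -225, from -55 to -51 and from -48 to -44 relative to the start site of the window. The SLC2A1 window held 1, which lies after the start, from 25 to 29. No core stood in the HK1 window, and the SLC2A6 window held 3. HK1 has 19 listed transcripts, and windows at its other start sites were not examined. Of 35116 such windows in the RefSeq table, 21.4% held ACGTG, 36.5% GCGTG and 48.4% either of them, and 10.1% held at least 3 cores. A match in the letters is a description and not a binding site. The SLC2A10 window held 1 core, and those of SLC2A8 and SLC2A12 held 0.

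Libraries held 16073597 to 19170560 expected counts. The defining fibroblast markers gave a summed 5106 to 5689 FPKM in MRC5_Mo, 5873 to 6068 in MRC5_CoH69 and 2494 to 2641 in MRC5_CoH196, with all 8 above 0. In H196 libraries the same list reached 0.36 to 0.57 FPKM, with THY1 not listed and COL1A2 at 0 in H196_Mo. Neuroendocrine markers summed to 0.26 to 0.61 FPKM in MRC5, where INSM1, CHGA and NEUROD1 are not listed, and to 12.4 to 13.7 FPKM in H196, where INSM1 is not listed and NCAM1 had 0 counts in H196_Mo. The non-NE list (REST, YAP1, AXL, VIM) was high in both lines, at 3083 to 3573 FPKM in H196 and 3825 to 6077 in MRC5, so it does not separate them. Epithelial markers summed to 106 to 144 FPKM in MRC5 and 179 to 232 in H196. Of the immune and endothelial markers, PTPRC, PECAM1 and CDH5 had at most 3 counts in any library or are not listed. The list summed to 40.7 to 81.6 FPKM in MRC5 and 57.4 to 82.3 in H196. CD68 carried that sum, with 1074 to 2208 counts per library in MRC5 and 1297 to 2006 in H196. Against MRC5_Mo, its log2 fold change was 0.69 in MRC5_CoH196 and -0.27 in MRC5_CoH69. The lower fibroblast sum in MRC5_CoH196 was carried by the collagens, with log2 fold changes against MRC5_Mo of -1.57 for COL1A1, -2.09 for COL3A1 and -0.56 for COL1A2. The other markers were at 0.67 (PDGFRB), 0.30 (LUM), 0.15 (DCN), 0.15 (FAP) and -0.07 (THY1, adjusted p = 0.131). Thus 4 of the 8 were higher and 3 lower, against 37.2% and 37.1% of all tested genes. This goes with the MRC5_CoH196 results below, and its part in them was not tested. Each library is the RNA of a whole culture, in which fewer cells and less RNA per cell cannot be told apart.

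SLC2A1 and SLC2A3, which encode the major plasma membrane transporters, rose in MRC5 grown with H196 and moved little in MRC5 grown with H69. The first question was how fibroblasts respond to a non-NE partner compared with an NE one. Levels are in FPKM, which counts fragments relative to transcript length and library size. SLC2A1 measured 81.9, 77.4 and 82.5 FPKM in the MRC5_Mo libraries, 98.5, 90.2 and 85.7 in MRC5_CoH69 and 466, 436 and 492 in MRC5_CoH196. All MRC5_CoH196 libraries stood far above the rest, and the MRC5_CoH69 libraries stood just above those of MRC5_Mo. On normalised counts in edgeR's quasi-likelihood test, SLC2A1 was 6.51-fold higher in MRC5_CoH196 than in MRC5_Mo (log2 fold change 2.70 ± 0.056 SE, adjusted p = 8.91e-23). SLC2A3 measured 17.1, 16.7 and 17.0 FPKM in MRC5_Mo, 15.9, 15.2 and 16.1 in MRC5_CoH69 and 196.4, 177 and 198 in MRC5_CoH196. It was the member with the largest rise, 12.7-fold (log2 fold change 3.67 ± 0.054 SE, adjusted p = 5.03e-26), at rank 59 among the rises of 12819 tested genes. SLC2A1 ranked 121. The MRC5_CoH69 libraries of SLC2A3 were all slightly below those of MRC5_Mo, by a log2 fold change of -0.09 that did not pass the test (adjusted p = 0.393).

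**Figure D1:**
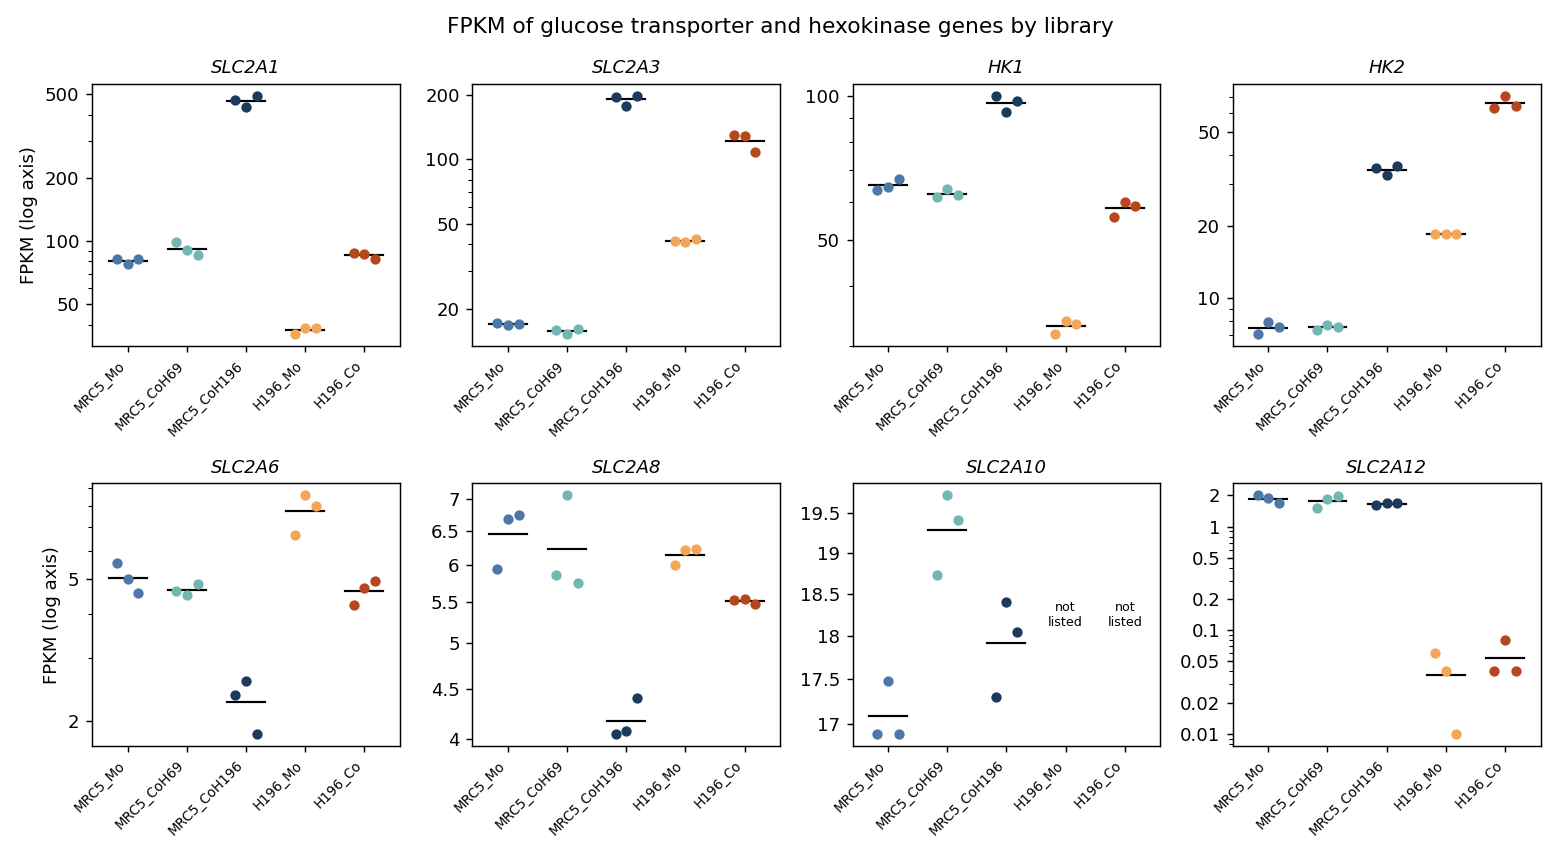
FPKM on log axes, with a separate scale per gene, for each of the 3 libraries of every group (points) and their mean (line). SLC2A1, SLC2A3, HK1 and HK2 are higher in MRC5_CoH196 than in MRC5_Mo and higher in H196_Co than in H196_Mo, SLC2A6 is lower in both, and SLC2A10 is not listed for H196.

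HK2 rose in MRC5_CoH196 as well, and HK1, which started from a higher level, rose less. HK2 measured 7.03, 7.92 and 7.5 FPKM in MRC5_Mo, 7.34, 7.70 and 7.51 in MRC5_CoH69 and 35.01, 32.7 and 35.9 in MRC5_CoH196. The first 2 groups overlapped and the third lay wholly above them. HK2 was 5.22-fold higher in MRC5_CoH196 than in MRC5_Mo (log2 fold change 2.38 ± 0.054 SE, adjusted p = 3.81e-22), at rank 160. HK1 measured 63.6, 64.5 and 66.8 FPKM in MRC5_Mo, 61.3, 63.8 and 61.9 in MRC5_CoH69 and 100.1, 92.4 and 97.3 in MRC5_CoH196. Here too only the MRC5_CoH196 libraries stood apart, by 1.68-fold (log2 fold change 0.75 ± 0.045 SE, adjusted p = 1.25e-13). By limma on log2(FPKM + 1), the HK1 change was 0.56, under the study's limit of 0.58 for a differentially expressed gene (DEG). On that scale the median of all genes lay at -0.13, and HK1 stood 0.70 above it. HK2 is among the glycolysis genes that the study listed from these same samples, so its rise is not independent of that choice.

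The lower-level transporters went other ways. SLC2A6 encodes GLUT6, a transporter of lysosomal membranes, and it fell in MRC5_CoH196. It measured 5.54, 5.02 and 4.57 FPKM in MRC5_Mo, 4.63, 4.50 and 4.84 in MRC5_CoH69 and 2.36, 2.59 and 1.84 in MRC5_CoH196. The MRC5_CoH196 libraries lay wholly below the other groups, which overlapped. SLC2A6 was 2.07-fold lower in MRC5_CoH196 than in MRC5_Mo (log2 fold change -1.05 ± 0.11 SE, adjusted p = 9.29e-09), from 75 to 91 counts per library against 169 to 206. SLC2A8 encodes GLUT8, an intracellular transporter. It measured 5.95, 6.68 and 6.74 FPKM in MRC5_Mo, 5.86, 7.06 and 5.76 in MRC5_CoH69 and 4.05, 4.08 and 4.4 in MRC5_CoH196. SLC2A8 was 1.33-fold lower in MRC5_CoH196 than in MRC5_Mo (log2 fold change -0.41 ± 0.11 SE, adjusted p = 0.00137), a change that passed the test but not the fold limit.

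SLC2A10 and SLC2A12 were the members with the smallest changes in MRC5_CoH196 compared with MRC5_Mo. SLC2A10 encodes GLUT10, the gene of arterial tortuosity syndrome, and ranged from 16.9 to 17.5 FPKM in MRC5_Mo, 18.7 to 19.7 in MRC5_CoH69 and 17.3 to 18.4 in MRC5_CoH196. Its log2 fold change was 0.25 ± 0.046 SE with H196 (adjusted p = 3.82e-05) and 0.20 ± 0.046 SE with H69 (adjusted p = 0.00877). Neither passed by limma on log2(FPKM + 1), with changes of 0.06 (adjusted p = 0.189) and 0.17 (adjusted p = 0.0602). The call with H69 was also lost without MRC5_CoH69 replicate 2 (0.18, adjusted p = 0.0575) and without MRC5_Mo replicate 3 (0.18, adjusted p = 0.0602). In MRC5_CoH196 on that scale, SLC2A10 stood 0.20 above the median of all genes. SLC2A12 encodes GLUT12 and ranged from 1.51 to 2.0 FPKM over the 9 MRC5 libraries. It had a log2 fold change of 0.02 ± 0.12 SE with H196, with a 95% interval from -0.23 to 0.27 (adjusted p = 0.882).

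Against H196, 5 of the 8 genes were higher and 2 lower at an adjusted p under 0.05 in MRC5, where 37.2% of all tested genes were higher and 37.1% lower. DEGs, with an absolute log2 fold change above 0.58 as well, numbered 5 of 8 against 31.9% of all tested genes. The median log2 fold change of the 8 was 0.50, and that of all tested genes was -0.00300. Over all genes the DEGs split into 2207 higher and 1885 lower, and by limma on log2(FPKM + 1) into 915 higher and 2082 lower.

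Grown with H69, 2 of the 8 genes were higher in MRC5 and 0 lower, against 3.78% higher and 2.93% lower of all tested genes. The 2 were SLC2A10 and SLC2A1, with a log2 fold change of 0.20 ± 0.055 SE for SLC2A1 (adjusted p = 0.0304). The SLC2A1 call was lost without MRC5_CoH69 replicate 1 (0.13, adjusted p = 0.231), MRC5_CoH69 replicate 2 (0.20, adjusted p = 0.0751), MRC5_Mo replicate 2 (0.16, adjusted p = 0.203) or MRC5_Mo replicate 3 (0.21, adjusted p = 0.0673), and by limma on log2(FPKM + 1) (0.18, adjusted p = 0.118). DEGs numbered 0 of 8 by edgeR, DESeq2 and limma, against 0.554% of all genes tested by edgeR. HK2 had a log2 fold change of 0.02, with a 95% interval from -0.11 to 0.14, and HK1 of -0.05, with an interval from -0.14 to 0.05. These intervals lie inside the fold limit of 0.58.

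The partners were then compared directly, with the same MRC5_CoH196 libraries as above. In MRC5_CoH196 against MRC5_CoH69, 4 of the 8 genes were higher and 2 lower, against 35.7% and 36.6% of all tested genes, and 5 of 8 were DEGs against 28.2%. Over all genes these DEGs were 1943 higher and 1675 lower by edgeR, and 821 and 1746 by limma on log2(FPKM + 1). SLC2A3 differed most, 13.6-fold (log2 fold change 3.76 ± 0.054 SE, adjusted p = 4.08e-26). SLC2A1 was 5.69-fold, HK2 5.15-fold and HK1 1.73-fold higher with H196 than with H69. SLC2A6 was 1.96-fold lower with H196 (adjusted p = 4.8e-08), and SLC2A8 1.3-fold lower (adjusted p = 0.00305). SLC2A10 did not pass, with a log2 fold change of 0.05 and a 95% interval from -0.04 to 0.14, and it turned to -0.10 by limma on log2(FPKM + 1).

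H196 cells showed the same directions for 5 genes when grown with MRC5. The question here was how the non-NE cancer cells respond to fibroblasts. HK2 measured 18.6, 18.5 and 18.5 FPKM in H196_Mo and 63.1, 70.9 and 64.0 in H196_Co. It was 3.79-fold higher (log2 fold change 1.92 ± 0.070 SE, adjusted p = 7.69e-14), at rank 10 among the rises of 12806 tested genes. SLC2A3 measured 41.5, 40.9 and 42.4 FPKM in H196_Mo and 129.6, 128 and 108.6 in H196_Co. The third H196_Co library was the lowest of its group and still far above every H196_Mo library. SLC2A3 was 3.09-fold higher (log2 fold change 1.63 ± 0.076 SE, adjusted p = 4.63e-12), at rank 25.

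SLC2A1 measured 36.1, 38.3 and 38.6 FPKM in H196_Mo and 87.6, 87.0 and 82.1 in H196_Co, 2.39-fold higher (log2 fold change 1.26 ± 0.070 SE, adjusted p = 7.07e-11). HK1 measured 31.7, 33.8 and 33.3 FPKM in H196_Mo and 55.7, 59.9 and 58.9 in H196_Co. For both genes the groups did not overlap, and HK1 was 1.86-fold higher (log2 fold change 0.90 ± 0.069 SE, adjusted p = 1.15e-08). SLC2A6, the lysosomal transporter gene, measured 6.67, 8.60 and 8.02 FPKM in H196_Mo and 4.23, 4.73 and 4.94 in H196_Co. It fell in this line too, 1.64-fold (log2 fold change -0.71 ± 0.12 SE, adjusted p = 0.000238). SLC2A8 measured 6.0, 6.22 and 6.23 FPKM in H196_Mo and 5.53, 5.54 and 5.48 in H196_Co. It was lower in every H196_Co library by FPKM, but on normalised counts its log2 fold change of -0.09 ± 0.11 SE did not pass (adjusted p = 0.617). SLC2A12 had 4, 1 and 1 counts in H196_Mo and 1, 3 and 2 in H196_Co, too few to enter the fit.

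Of the 6 members tested in H196, 4 were higher and 1 lower, against 12.0% and 7.78% of all tested genes. DEGs numbered 5 of 6 against 3.86% of all tested genes. The median log2 fold change of the 6 was 1.08, and that of all tested genes was -0.00146.

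**Figure D2:**
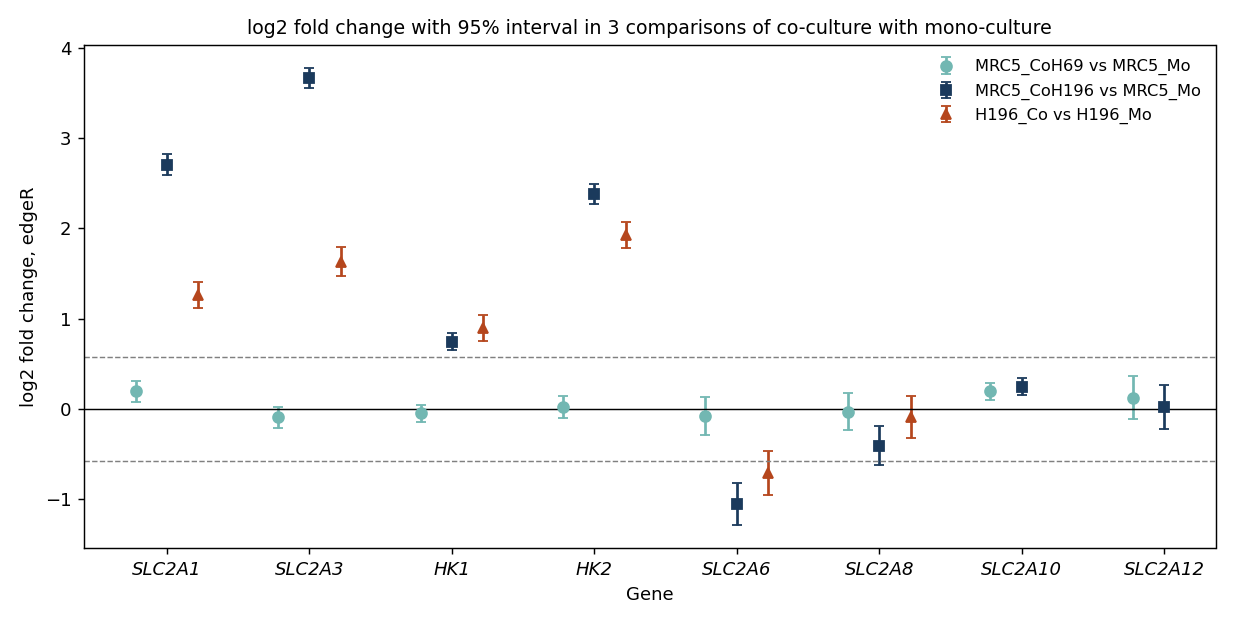
log2 fold change (points) with its 95% interval (bars) for each gene in MRC5_CoH69 vs MRC5_Mo, MRC5_CoH196 vs MRC5_Mo and H196_Co vs H196_Mo, with dashed lines at 0.58 and -0.58. The H69 points stay within the dashed lines, while SLC2A3 reaches 3.67 in MRC5_CoH196 and HK2 reaches 1.92 in H196_Co.

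The size of the response differed between the lines for 3 genes. In a fit of all 15 libraries, the response of MRC5 to H196 was set against the response of H196 to MRC5, and the difference was called for 3 of 7 members tested, against 51.2% of 13585 genes. SLC2A3 rose 4.04-fold more in MRC5 (difference of log2 fold changes 2.01 ± 0.090 SE, adjusted p = 5.46e-16). SLC2A1 rose 2.67-fold more in MRC5 (1.42 ± 0.089 SE, adjusted p = 5.16e-13). The difference for HK2 was smaller, 1.35-fold (0.43 ± 0.082 SE, adjusted p = 6.29e-05).

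HK1 leaned the other way, with a larger rise in H196, but the difference of -0.18 did not pass (95% interval -0.33 to -0.02, adjusted p = 0.0511). SLC2A6 (-0.37, adjusted p = 0.0694) and SLC2A8 (-0.35, adjusted p = 0.0532) did not pass either. These 3 stood close to the threshold. HK1 and SLC2A6 passed without H196_Mo replicate 2 (adjusted p = 0.0388 and 0.0387), which brought the count to 5, and HK1 also without H196_Co replicate 1 (adjusted p = 0.0294). SLC2A6 passed without H196_Co replicate 2 (adjusted p = 0.0479) or MRC5_Mo replicate 3 (adjusted p = 0.036), and SLC2A8 without MRC5_Mo replicate 1 (adjusted p = 0.0373). By limma on log2(FPKM + 1), a scale chosen after seeing the data, HK1 (-0.24, adjusted p = 0.0047) and SLC2A8 (-0.39, adjusted p = 0.00323) passed.

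Levels already differed between H196 and MRC5 in culture alone. Per the study's methods, SCLC lines were kept in RPMI medium and MRC5 in MEM. Line and medium thus differed together in this comparison and cannot be told apart. H196_Mo against MRC5_Mo gave 5 DEGs among 7 members tested, against 61.7% of 13585 genes. On normalised counts SLC2A1 was 2.90-fold lower (adjusted p = 9.05e-19) and HK1 2.67-fold lower (adjusted p = 8.97e-20) in H196_Mo, while SLC2A3 was 1.81-fold higher (adjusted p = 1.42e-12) and HK2 1.79-fold higher (adjusted p = 3.31e-13). For SLC2A12 the H196_Mo libraries held 4, 1 and 1 counts and the MRC5_Mo libraries 123, 116 and 113. The joint normalisation gave factors of 1.23 to 1.26 to the H196_Mo libraries and of 0.921 to 0.923 to the MRC5_Mo libraries, which FPKM does not carry. The log2 ratio of mean FPKM was -1.10 for SLC2A1, -0.98 for HK1, 1.3 for SLC2A3 and 1.31 for HK2, against -1.54, -1.42, 0.86 and 0.84 on normalised counts. Directions were the same on both scales for these 4. SLC2A8, at -0.53 on normalised counts (adjusted p = 1.94e-05), was at -0.06 by limma on log2(FPKM + 1) and did not pass (adjusted p = 0.428). SLC2A6 was 1.18-fold higher in H196_Mo (adjusted p = 0.0336), a call that was lost without MRC5_Mo replicate 3 (adjusted p = 0.193), H196_Mo replicate 2 (adjusted p = 0.165) or H196_Mo replicate 3 (adjusted p = 0.116).

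Ordered by mean FPKM, the groups ranked differently for the paired isoenzymes. HK2 was highest in H196_Co (66.0 ± 4.25 SD, n = 3), followed by MRC5_CoH196 (34.5 ± 1.62), H196_Mo (18.5 ± 0.050), MRC5_CoH69 (7.52 ± 0.18) and MRC5_Mo (7.48 ± 0.45). The last 2 overlapped and no other neighbours did. HK1 was highest in MRC5_CoH196 (96.6 ± 3.90), followed by MRC5_Mo (64.97 ± 1.67), MRC5_CoH69 (62.3 ± 1.3), H196_Co (58.2 ± 2.16) and H196_Mo (33.0 ± 1.09), with MRC5_Mo and MRC5_CoH69 overlapping. HK1 of H196_Co was 0.895 of the MRC5_Mo level by mean FPKM and 0.703 by normalised counts. HK2 of H196_Mo stood above that of MRC5_Mo on both scales.

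SLC2A1 was highest in MRC5_CoH196 (465 ± 28.1 SD, n = 3), then in MRC5_CoH69 (91.5 ± 6.50), H196_Co (85.5 ± 2.99), MRC5_Mo (80.6 ± 2.81) and H196_Mo (37.7 ± 1.38). By FPKM the middle 3 overlapped with their neighbours in this order. On the normalised counts of all 15 libraries, H196_Co lay wholly below MRC5_Mo, at 237, 229.6 and 219.6 CPM (counts scaled to the size of the library) against 279, 262 and 281, so the order of these groups depends on the scale. SLC2A3 was highest in MRC5_CoH196 (190.8 ± 11.6), then in H196_Co (122 ± 11.7), H196_Mo (41.6 ± 0.72), MRC5_Mo (16.9 ± 0.20) and MRC5_CoH69 (15.7 ± 0.45), with no overlap between neighbours. SLC2A6 was highest in H196_Mo (7.76 ± 0.99) and lowest in MRC5_CoH196 (2.26 ± 0.38), and on normalised counts H196_Mo overlapped with MRC5_Mo.

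The balance of isoforms shifted towards HK2 and SLC2A3 in both lines. HK2 made up 9.95%, 10.9% and 10.1% of the summed HK1 and HK2 FPKM in MRC5_Mo, 10.7%, 10.8% and 10.8% in MRC5_CoH69 and 25.9%, 26.2% and 26.9% in MRC5_CoH196. In H196 its share was 36.9%, 35.4% and 35.6% alone and 53.1%, 54.2% and 52.1% with MRC5. HK1 was the more abundant mRNA in all libraries except those of H196_Co, where HK2 was. The share was 16.01 percentage points higher in MRC5_CoH196 than in MRC5_Mo and 17.2 points higher in H196_Co than in H196_Mo. Both differences had a two-sided exact permutation p of 0.1, the smallest that 3 libraries against 3 allow, or 0.114 adjusted over the 8 share comparisons. The share with H69 was 0.436 points above that of MRC5_Mo, with overlapping groups (exact permutation p = 0.4).

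SLC2A3 made up 17.2%, 17.8% and 17.1% of the summed SLC2A1 and SLC2A3 FPKM in MRC5_Mo and 29.6%, 28.9% and 28.7% in MRC5_CoH196. The share in MRC5_CoH69 was lower, at 13.9%, 14.4% and 15.8%, 2.66 points below MRC5_Mo on average. In H196 it was 53.5%, 51.6% and 52.3% alone and 59.7%, 59.5% and 56.9% with MRC5, a difference of 6.22 points. Groups did not overlap in any of these 3 comparisons, each with an exact permutation p of 0.1. Against all listed SLC2A genes instead of SLC2A1 alone, the SLC2A3 share of H196 went from 40.5% ± 1.14 (SD, n = 3) to 53.6% ± 1.84, a difference of 13.1 points.

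**Figure D3:**
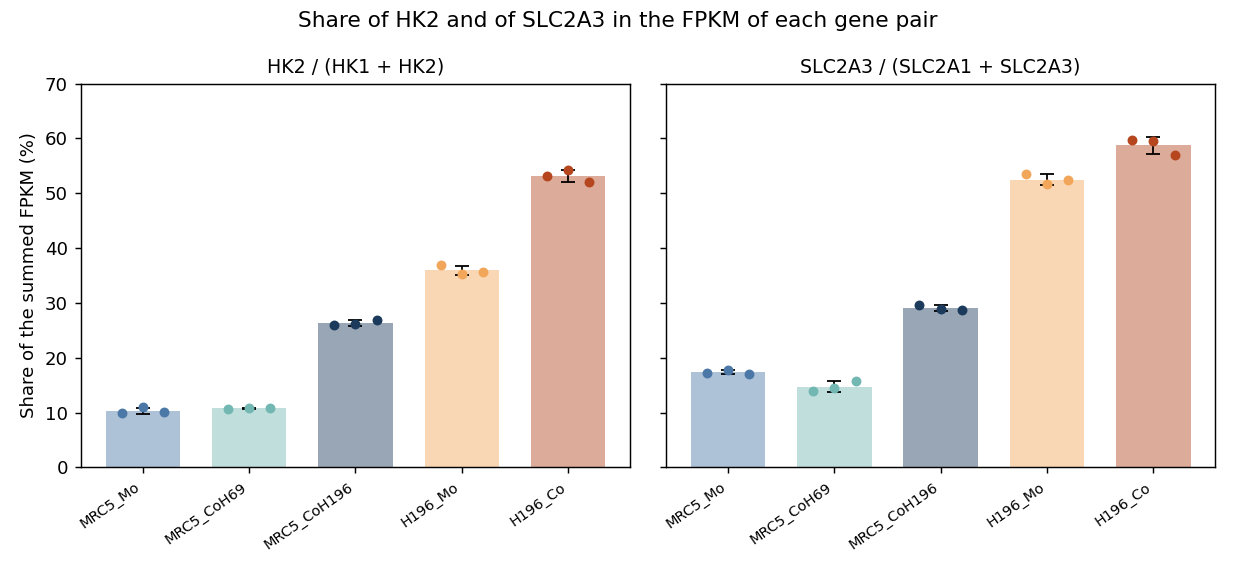
HK2 as a share of the summed HK1 and HK2 FPKM (left) and SLC2A3 as a share of the summed SLC2A1 and SLC2A3 FPKM (right), in percent, by library (points) with group mean (bar, from 0) and SD. The HK2 share passes 50% in H196_Co, and both shares are higher in MRC5_CoH196 than in either other MRC5 group.

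Summed over all listed SLC2A genes, transporter mRNA went from 132 ± 2.17 FPKM (SD, n = 3) in MRC5_Mo to 143 ± 5.52 in MRC5_CoH69 and 688 ± 38.7 in MRC5_CoH196, and from 102.8 ± 2.77 in H196_Mo to 227 ± 14.3 in H196_Co. Hexokinase mRNA went from 73.2 ± 1.86 FPKM in MRC5_Mo to 132 ± 5.3 in MRC5_CoH196 and from 53.5 ± 1.21 in H196_Mo to 126.7 ± 6.37 in H196_Co. The ratio of co-culture with the other line to mono-culture was thus 5.19 for transporters and 1.81 for hexokinases in MRC5, and 2.21 and 2.37 in H196. These ratios were not tested against each other. SLC2A1 and SLC2A3 together held most of the transporter mRNA, and SLC2A10 added 12.9% ± 0.47 of it in MRC5_Mo and 2.61% ± 0.20 in MRC5_CoH196.

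Reads could be shared between near-identical genes for some members. Of the windows of 50 bases in the longest coding SLC2A3 transcript of GENCODE v29, 24.1% also occur in transcripts of other genes, nearly all in SLC2A14, its close paralog. For HK2 the share was 8.58%, in the pseudogene HK2P1, for SLC2A1 1.74% and for SLC2A6 0.928%. HK1, SLC2A8, SLC2A10 and SLC2A12 shared 0 windows. SLC2A14 had 7 to 8 expected counts per library in H196_Mo and 14 to 23 in H196_Co, against 2360 to 7904 for SLC2A3, so adding SLC2A14 to SLC2A3 moved none of the 4 SLC2A3 share differences by as much as the spread between replicates. The log2 fold change of SLC2A14 in H196_Co was 1.34 (adjusted p = 0.00829) and is uncertain for the same reason.

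Other genes of glucose entry were read from fixed lists. Of 11 other transporters, 4 were tested in MRC5, where 2 rose and 1 fell with H196, against 37.2% and 37.1% of all tested genes. SLC2A13, which encodes the proton-coupled myo-inositol transporter, measured 1.36, 1.58 and 1.43 FPKM in MRC5_Mo and 2.88, 3.46 and 3.48 in MRC5_CoH196 (log2 fold change 1.54 ± 0.086 SE, adjusted p = 3.33e-14). In H196 it was at -0.03 with MRC5 (adjusted p = 0.848), and the difference between the lines was 1.55 (adjusted p = 4e-10). SLC50A1, of the SWEET family, rose by 0.38 (adjusted p = 9.87e-05), and SLC2A11 fell by 0.42 (adjusted p = 0.00437) in MRC5_CoH196. In H196, 5 were tested and SLC2A14 passed.

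Among other glucose-phosphorylating enzymes, ADPGK, which uses ADP as phosphate donor, fell by 0.46 in MRC5_CoH196 (adjusted p = 4.18e-09). In H196_Co it was at -0.03 and did not pass (adjusted p = 0.815).

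Of 13 later glycolysis genes, 12 were higher and 0 lower in MRC5_CoH196, where 37.2% of all tested genes were higher and 37.1% lower. In H196_Co 12 were higher and 0 lower, against 12.0% and 7.78% of all tested genes. Their median log2 fold changes were 1.06 and 0.57. ENO2, an enolase, had 3.85 in MRC5_CoH196 and 1.62 in H196_Co, and PGK1, phosphoglycerate kinase, 1.80 and 1.26. The exception in both lines, named after its values were seen, was PFKM, a phosphofructokinase subunit, at 0.08 and 0.07. With H69, 1 of the 13 was higher and 0 lower, against 3.78% and 2.93% of all tested genes. ENO2, PGK1 and several others are also in the study's own glycolysis lists, which were drawn from these samples.

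Of 9 genes for the fates of glucose 6-phosphate, 6 were higher and 2 lower in MRC5_CoH196, against 37.2% and 37.1% of all tested genes. In H196_Co 3 were higher and 0 lower, against 12.0% and 7.78%. The list includes GPI, which is the next step of glycolysis itself. GYS1, the glycogen synthase of muscle and most other tissues, rose by 1.12 and 1.13, and GPI, which makes fructose 6-phosphate, by 1.08 and 1.75. G6PC3, a glucose 6-phosphatase, fell by 0.60 in MRC5_CoH196 and was at 0.04 in H196_Co (adjusted p = 0.761). The difference between lines for G6PC3 passed (-0.67, adjusted p = 1.48e-06).

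**Figure D4:**
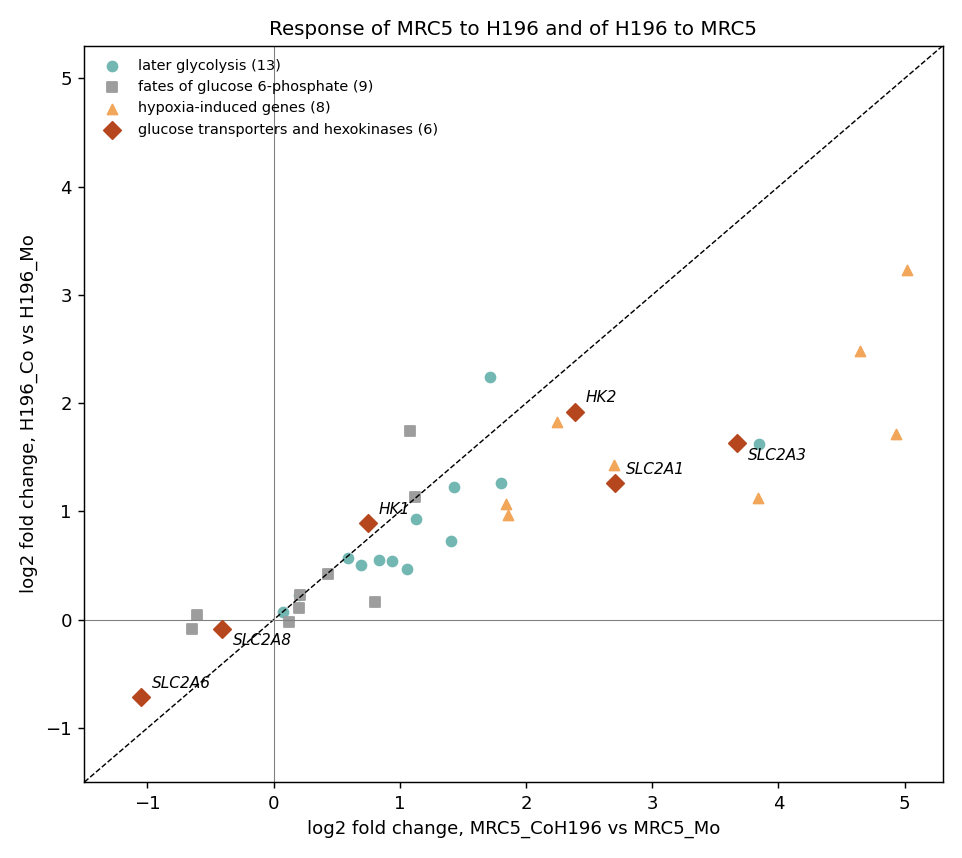
log2 fold change in MRC5_CoH196 vs MRC5_Mo (x axis) against H196_Co vs H196_Mo (y axis) for genes tested in both lines, with equality as a dashed line. SLC2A3 and SLC2A1 lie well below the line (3.67 against 1.63 and 2.70 against 1.26), HK2 somewhat below it (2.38 against 1.92) and HK1 near it (0.75 against 0.90).

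Among 11 regulators of transporters and hexokinases, 5 were higher and 4 lower in MRC5_CoH196, shares near the 37.2% and 37.1% of all tested genes. In H196_Co 2 were higher and 1 lower of 10 tested, against 12.0% and 7.78%. TXNIP, which promotes endocytosis of GLUT1, measured 28.3, 25.1 and 20.4 FPKM in MRC5_Mo and 55.3, 57.5 and 50.3 in MRC5_CoH196 (log2 fold change 1.31 ± 0.078 SE, adjusted p = 1.02e-13), and is not listed for H196. TBC1D4, a regulator of GLUT4 traffic, rose by 0.53. TIGAR, a fructose bisphosphatase, fell by 0.76 in MRC5_CoH196 and by 0.38 in H196_Co (adjusted p = 0.0108). VDAC3, of the mitochondrial channels that hexokinases bind, fell by 0.47 in MRC5_CoH196. The related channels VDAC1 and VDAC2, named after their values were seen, rose there by 0.45 and 0.25.

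Hypoxia-induced genes that were tested rose in MRC5_CoH196 and H196_Co, where SLC2A1, SLC2A3, HK1 and HK2 also rose and SLC2A6 fell. What part HIF had in the members' levels was not tested. All 10 listed were higher in MRC5_CoH196 (median log2 fold change 4.24), 8 of 8 tested in H196_Co (median 1.58) and 4 of 10 in MRC5_CoH69 (median 0.26), where 37.2%, 12.0% and 3.78% of all tested genes were higher. CA9, a carbonic anhydrase, had 3, 11 and 6 counts in MRC5_Mo and 816, 712 and 905 in MRC5_CoH196. EGLN3, a HIF prolyl hydroxylase, had 0, 1 and 8 counts in MRC5_Mo and 211, 171 and 184 in MRC5_CoH196. In H196 CA9 and EGLN3 stayed near 0 and did not enter the fit. CA9 had 0, 1 and 0 counts in H196_Mo and 0, 0 and 0 in H196_Co. EGLN3 had 0, 3 and 1 counts in H196_Mo and 5, 1 and 2 in H196_Co. VEGFA, the angiogenic factor, rose by 3.84 on the log2 scale in MRC5_CoH196, 0.34 in MRC5_CoH69 (adjusted p = 0.000974) and 1.12 in H196_Co.

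Of 7 transcription factors that act on these genes, 6 were tested in MRC5 and 5 were higher with H196 and 0 lower, against 37.2% and 37.1% of all tested genes. MYC rose by 1.0 in MRC5_CoH196 and 0.62 in H196_Co, and MLXIP, a glucose-sensing partner of MLX, by 0.74 in MRC5_CoH196. HIF1A, the alpha subunit of HIF-1, rose by 0.39 in MRC5_CoH196 (adjusted p = 5.93e-09) and fell by 0.38 in H196_Co (adjusted p = 0.000912). EPAS1, its HIF-2 paralog, was named for this contrast after its values were seen. It was at 0.01 in MRC5_CoH196 (adjusted p = 0.920) and rose by 0.97 in H196_Co, from 16 to 18 counts to 25 to 42 (adjusted p = 0.0134). In H196_Co 2 of 7 factors were higher and 1 lower, against 12.0% and 7.78% of all tested genes. What part these factors had in the members' levels was not tested.

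Over the 15 libraries, the members fell into patterns that were set by line and partner together. The log2 CPM of SLC2A1 followed that of HK1 with a Pearson r of 0.932, and SLC2A3 followed HK2 with 0.933, while HK1 and HK2 had 0.153 and SLC2A1 and SLC2A3 0.628. These are descriptions over libraries of 5 groups, in which replicates share a group. Among 13585 genes, those most like SLC2A3 were ERO1A (0.996), ENO2 (0.995), HILPDA (0.995), BHLHE41 (0.993) and ANGPTL4 (0.993). SLC2A1 was most like TBC1D9B, DLG4, PFKP, RORA and SHB, with r from 0.991 to 0.994. HK2 was most like PFKFB4, GAPDH, C8orf58, SMS and WDR45B, with r from 0.985 to 0.993.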

How the data were processed

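RNA-seq of MRC5 and H196 cells was deposited as a table per line. Per the study's methods, poly(A) mRNA was sequenced on a BGISEQ instrument, reads were cleaned with SOAPnuke and aligned to GRCh38.p13 with HISAT and, for the gene set, with Bowtie2. The submitters' processing notes name HISAT2 2.1.0, Bowtie2 2.3.4.3 and RSEM 1.3.1. The deposited expected counts (estimated read counts per gene) and the deposited FPKM values were made by the authors in this way. FPKM divides by length and by the fragments of a library, so a few abundant genes can lower all others. The authors' own fold change, p-value and q-value columns were not used, and 18 and 12 further per-library columns of the 2 tables were left out.

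Expected counts were rounded and tested with edgeR 4.0.16 (quasi-likelihood test, TMM normalisation, filterByExpr) in R 4.3.3, with Benjamini-Hochberg adjustment over all 12819 genes tested in MRC5 or 12806 in H196. Each line was fitted with all its groups, and all 15 libraries were fitted together for comparisons between lines, over 13585 genes. DEGs had an adjusted p under 0.05 with a log2 fold change beyond 0.58 in size. SE is the log2 fold change divided by the root of F, and 95% intervals use the t quantile of the test's degrees of freedom. Shares were compared with two-sided exact permutation tests (scipy 1.17.1). Alternatives were DESeq2 1.42.0, other filters and size factors, limma 3.58.1 on log2 FPKM with a pseudocount of 1 or 0.1, a replicate block and leaving out each library. The procedure was tested on simulated data. The precision of low genes is limited by counting error.

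Besides the 8 genes, those named were the other transporters and glucose-phosphorylating enzymes that passed in a line, the 2 largest rises and falls of each pathway list in MRC5_CoH196, TXNIP, MYC, HIF1A and VEGFA, and the 5 genes most like HK2, SLC2A1 and SLC2A3. Some genes that this rule names are not reported here. The genes and lists were chosen with earlier results of these data known.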

Additional observations from a re-analysis of the deposited data

Results flagged for a closer look

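The response to co-culture differed between the lines for 3 genes in the edgeR fit of all libraries. These were 3 of 7 members tested, against 51.2% of 13585 genes, so such a difference was not more frequent among the members. The difference, MRC5 minus H196, was 2.01 on the log2 scale for SLC2A3, 1.42 for SLC2A1 and 0.43 for HK2, and the MRC5 response was the larger in each case.

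The response of MRC5 differed between its partners for 6 genes. This is the same as the direct comparison of MRC5_CoH196 with MRC5_CoH69, because both responses share the MRC5_Mo libraries. In it 4 of the 8 members were higher and 2 lower, against 35.7% and 36.6% of all tested genes. The log2 difference, H196 minus H69, was 3.76 for SLC2A3, 2.51 for SLC2A1, 2.37 for HK2, 0.79 for HK1, -0.97 for SLC2A6 and -0.37 for SLC2A8. The groups hold 3 libraries, too few to look for a single library that stands apart.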

How the results depend on the processing

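Of the log2 fold changes recomputed under the alternatives, 594 kept their direction and side of the threshold, 17 lost the call, 10 gained it and 17 reversed. The reversals were of values that had not passed. SLC2A12 went to -0.101 and -0.149 in MRC5_CoH196 vs MRC5_Mo and to -0.0462 and -0.0693 in MRC5_CoH69 vs MRC5_Mo by limma on log2(FPKM + 1) and log2(FPKM + 0.1), and SLC2A10 to -0.101 and -0.106 in MRC5_CoH196 vs MRC5_CoH69. Leaving out a library gave -0.0744 to 0.104 for SLC2A12 in MRC5_CoH196 vs MRC5_Mo, -0.122 to 0.011 for SLC2A8 and -0.0248 to 0.0534 for HK2 in MRC5_CoH69 vs MRC5_Mo, and -0.995 to 0.320 for the SLC2A12 difference between lines, whose H196 counts are near 0. With no fold limit the members called with H69 numbered 2, against 3.78% higher and 2.93% lower of all tested genes. With a log2 limit of 1 the members called numbered 3 in MRC5_CoH196 vs MRC5_CoH69 and 3 in H196. Different responses numbered 5 by limma at either pseudocount, added after seeing the data, and 3 to 5 when a library was left out. The matching shares of all genes, for the limit of 1 and for these responses, are not given here. Counts not divided by length moved the HK2 share difference to 20.9 and 20.3 points in MRC5_CoH196 against MRC5_Mo and MRC5_CoH69, and that of SLC2A3 to 12.6 and 15.4. Over all SLC2A genes the SLC2A3 differences were 14.9, -1.81, 16.8 and 13.1 points. Without a library, HK2 share differences ran from 15.7 to 16.3 points (H196 partner), 0.248 to 0.743 (H69), 15.3 to 15.8 (between partners) and 16.6 to 17.7 (H196 cells), and SLC2A3 ones from 11.4 to 11.9, -3.20 to -2.25, 14.0 to 14.9 and 5.75 to 7.11. Over all genes, DEGs with H69 numbered 71 by edgeR, 40 by DESeq2 and 18 and 49 by limma, and in H196 494, 367, 195 and 417. Causes of these shifts were not tested.

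Same-numbered libraries did not deviate together (correlations from -0.151 to 0.081), so the numbers were treated as names. With the replicate block, member DEGs stayed at 5, 0, 5 and 5 and different responses at 3, and DEGs over all genes went from 4092 to 4088, 71 to 70 and 494 to 471.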
